A study of Mus musculus with 8 samples.

Results

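The genes described here encode the proteins of the mitochondrial ribosome. They are every gene in the raw count table whose symbol starts with Mrpl or Mrps followed by a number, which gave 77 of 15859 genes. By symbol alone, 48 were assigned to the large subunit (Mrpl) and 29 to the small subunit (Mrps). A symbol need not name the subunit that holds the protein, and this was not checked gene by gene. All 77 had a mean normalized count above 5 and were among the 14371 genes tested. The mouse annotation (GENCODE M21, build GRCm38) holds 78 protein-coding symbols of this form, and the remaining symbol, Mrpl58, stands in the count table under its older name Ict1. Mrps36 fits the rule by its symbol only, since its protein is now known as a subunit of the alpha-ketoglutarate dehydrogenase complex.

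Mitochondrial ribosomes translate the few mRNAs of mitochondrial DNA, which encode core subunits of the respiratory chain and of ATP synthase. Their proteins are encoded in the nucleus, made in the cytosol and imported, and some have counterparts in bacteria while others are specific to mitochondria. In the colon, absorptive epithelial cells rely on mitochondria to oxidize butyrate, a product of the gut bacteria.

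Poly(A) RNA from the distal colon of 8 mice was sequenced, 1 library per mouse and 2 mice in each of 4 groups. Male mice of a BALB/c x 129SvEV background were either *Hsf1* wild type (WT) or *Hsf1* null, carrying the inactivated allele of McMillan and colleagues in every tissue. Heat shock factor 1 (HSF1), the product of *Hsf1*, is a transcription factor that induces chaperone genes. Mice of the day 15 groups had received azoxymethane (AOM), a carcinogen, intraperitoneally at 10 mg/kg at 8 weeks of age, and from day 7 drank 1.5% dextran sulfate sodium (DSS), a substance toxic to the epithelium, for 5 days. Mice of the day 0 groups were untreated and age-matched, and the labels give an age of 10 weeks for all 8 animals. Titles of the samples name day 15, while the protocol in the labels has the treated mice killed directly after the 5 days of DSS. The authors state in their paper that the treated colons used for RNA sequencing were from day 15.

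The libraries held 9393945 and 2553348 counts (WT, day 0), 12440257 and 2675976 (*Hsf1* null, day 0), 11097367 and 9247665 (WT, day 15), and 7379442 and 7593259 (*Hsf1* null, day 15). In each group the value of replicate 1 is given first. At these depths 3 counts correspond to between 0.246 and 1.19 CPM (counts scaled to library size with the trimmed mean of M-values), and the least expressed of the 77 genes, *Mrps33*, had between 24 and 180 counts in each library.

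At day 0 *Hsf1* itself was at 40.5 and 36.5 CPM in WT mice and 14.0 and 11.9 CPM in null mice, with day 15 values of 50.5 and 45.9 CPM (WT) and 13.5 and 9.10 CPM (null). All 4 null libraries lay below all 4 WT libraries, and whether the *Hsf1* RNA left in them was functional was not tested.

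Summed over the 77 genes, the level at day 0 was 3940 and 5188 CPM in WT and 5237 and 4813 in null mice, and at day 15 it was 5461 and 4827 in WT and 5343 and 5389 in null mice. These genes took between 0.428% and 0.566% of the counts of a library. WT day 0 replicate 1 stood apart, with the lowest sum and the lowest share of the 8 libraries. Group means at day 0 were 4564 ± 882 CPM (SD, n = 2) in WT and 5025 ± 299.8 in null mice, and those at day 15 were 5144 ± 449 in WT and 5366 ± 32.5 in null mice. The 4 groups overlapped except that both null mice at day 15 lay above both null and both WT mice at day 0, by a margin smaller than the spread of WT mice. With 2 mice against 2, an exact permutation test cannot give a p below 0.333. The sums were not tested in another way. In a bulk sample, fewer cells of a type and less RNA per cell cannot be told apart.

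After each gene was centred on its mean over the libraries, the median of the 77 genes in log2 CPM was -0.28 in WT day 0 replicate 1 and 0.10 in replicate 2. It lay between -0.05 and 0.13 in the other 6 libraries. Within groups, the SD of this median was 0.16. That library also differed in its cell type markers: the summed level of 7 fibroblast markers was 2553 CPM against 945 in its replicate, and that of 13 colonocyte markers was 11830 against 17830. The part of cell composition in the lower level of these genes was not tested. The medians that use the WT mice at day 0 are therefore given below with and without this library.

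Levels of the 77 genes were compared with each other per kilobase of merged exons. The most abundant gene of each other list, named below, was taken by mean CPM, which is not corrected for length. Over the 77 genes the mean level ran from 3.61 to 221 CPM per kilobase, a 61.2-fold range. The median was 24.4 for the Mrpl genes and 17.2 for the Mrps genes. *Mrps21*, counterpart of a small-subunit protein of bacteria, was highest, at 145 and 183 CPM per kilobase (WT) and 253 and 246.5 (null) at day 0, and 226 and 232 (WT) and 219.8 and 263 (null) at day 15. *Mrpl52*, *Mrpl14*, *Mrpl34* and *Mrpl54* followed, at means of 203, 143, 142 and 139.7 CPM per kilobase. The lowest means were those of *Mrps10* (4.56), *Mrpl47* (4.52), *Mrps25* (4.49), *Mrpl1* (3.70) and *Mrps5* (3.61). Per kilobase of coding sequence the range was 15.2 to 626, 3 of the 5 highest genes and 2 of the 5 lowest were the same, and the orders had a Spearman correlation of 0.775 across the 77 genes, which are not independent replicates.

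The genes lie on 17 chromosomes, with the most on chromosomes 11 (10 genes) and 17 (8 genes). *Mrpl13* (chr15:55534094-55557748) is the member on the chromosome of *Hsf1*, 20.9 Mb from it. *Mrpl46* and *Mrps11* start head to head on chromosome 7. The annotation has 32 members that share exon bases with another gene, and 17 that share at least 10% of theirs, such as *Mrps25*, which shares 69.8% with *Nr2c2* on the opposite strand. Whether reads were counted by strand is not stated, so the counts of such pairs cannot be told apart. None of the 9 genes that passed the test between the days in null mice (below) was among these 32.

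Genotype was compared first in untreated colon. WT and *Hsf1* null mice gave a median log2 difference (WT minus null) of -0.11 over the 77 genes, beside 0.01 over all genes tested, and 21 of 77 values were positive. None of the 77 genes passed an adjusted p of 0.05 (edgeR, Benjamini-Hochberg over all genes) with more than a 2-fold difference, beside 0% of all genes tested. At an unadjusted p under 0.05 there were 7 (9.09%), all lower in WT, beside 6.29% of all genes, and DESeq2 placed 0 past the adjusted p, beside 0.118%. The groups did not overlap for 30 of the 77 genes, 7 higher and 23 lower in WT, beside 37.1% of all genes. The negative median rested on WT day 0 replicate 1: without it the median was 0.06, with 43 positive values, and without replicate 2 in its place it was -0.42.

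Among members lower in WT, *Mrpl42*, a mitochondria-specific protein of the large subunit, was at 51.8 and 49.6 CPM in WT mice and 75.7 and 122 CPM in null mice at day 0. Both WT values lay below both null values, at a log2 difference of -0.95 (SE 0.27, adjusted p = 0.7745). *Mrpl47*, at the exit of the tunnel through which the new protein leaves, had a log2 difference of -0.86, *Mrpl33* of -0.83, *Mrps33* of -0.69 and *Mrps18c* of -0.67. WT replicate 1 lay below replicate 2 for *Mrpl47* (11.3 and 17.1 CPM), *Mrps33* (6.37 and 13.1 CPM) and *Mrps18c* (55.7 and 87.7 CPM). On the other side, *Mrps36* was at 25.2 and 83.4 CPM in WT mice and 24.8 and 27.7 CPM in null mice, a log2 difference of 1.02 that came from 1 library, since WT replicate 1 lay between the null mice. *Mrps12*, of the decoding region, *Mrpl4*, *Mrps11* and *Mrps2* had log2 differences of 0.56, 0.56, 0.50 and 0.33. All of these had adjusted p values of 0.7745 or more.

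At day 15, after AOM and DSS, the same comparison gave a median log2 difference (WT minus null) of 0.02 over the 77 genes, beside 0.04 over all genes, and 41 of 77 values were positive. Again 0 members were called by edgeR, beside 3.17% of all genes tested. At an unadjusted p under 0.05, 8 were higher and 7 lower in WT (19.5%), beside 23.2% of all genes. DESeq2 called 1 and placed 2 past the adjusted p (2.60%), beside 9.29% of all genes. With only the 2 groups of this comparison fitted in edgeR, 0 members passed the adjusted p, beside 0.0412% of all genes. The groups did not overlap for 42 members (54.5%), 21 in each direction, beside 54.8% of all genes. The members lay on both sides of 0, with an SD of the log2 differences of 0.47, beside 0.96 over all genes.

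*Mrpl42* was again lower in WT mice, at 56.8 and 68.1 CPM against 113 and 133 CPM in null mice at day 15, a log2 difference of -0.98 (SE 0.27, adjusted p = 0.0730). The WT and null mice did not overlap for this gene at either day, but neither comparison passed the adjusted threshold in the main edgeR fit. At day 15 *Mrpl42* passed with DESeq2. It also passed there in edgeR with offsets for GC content and length. The same held for edgeR with mice paired by replicate number and the WT mice at day 0 exchanged. *Mrpl15*, counterpart of a bacterial large-subunit protein, was at 72.5 and 70.2 CPM in WT mice and 122 and 120.1 CPM in null mice (log2 difference -0.76, SE 0.22, adjusted p = 0.0779). *Mrpl27*, *Mrpl51* and *Mrpl47* had log2 differences of -0.77, -0.75 and -0.74.

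*Mrpl32*, a large-subunit protein that is cut by the m-AAA protease before it is assembled, lay on the other side. It was at 48.5 and 47.7 CPM in WT mice and 18.1 and 26.1 CPM in null mice at day 15, a log2 difference of 1.12 (SE 0.31, adjusted p = 0.0739), and DESeq2 placed it past the threshold. *Mrpl20*, known in bacteria for an early step of large-subunit assembly, was at 45.0 and 50.5 CPM in WT mice and 25.3 and 16.7 CPM in null mice (log2 difference 1.19, SE 0.39, adjusted p = 0.113). For both genes each WT mouse lay above each null mouse. *Mrps36*, *Mrps18b* and *Mrpl4* had log2 differences of 1.31, 0.82 and 0.75, with adjusted p values of 0.190, 0.133 and 0.171.

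**Figure D1:**
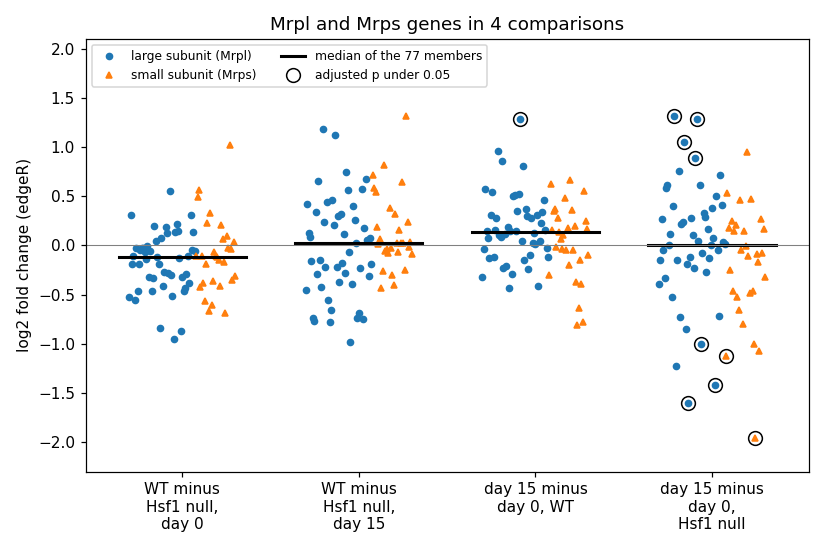
Log2 fold change (edgeR, vertical axis) of each of the 77 genes in 4 comparisons, with Mrpl genes as circles, Mrps genes as triangles, the median as a bar, and rings around genes with an adjusted p under 0.05. Medians lie between -0.11 and 0.14, and the rings are 1 gene between the days in WT mice and 9 genes between the days in *Hsf1* null mice.

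The next comparison asked how treated colon differed from untreated colon in WT mice. The median log2 fold change (day 15 minus day 0) was 0.14 over the 77 genes, beside 0.00 over all genes, and 50 of 77 values were positive. A single member, *Mrpl38*, was called (1.30%), beside 7.74% of all genes tested. At adjusted p under 0.05 with no limit on the fold, 1 member was higher and 0 were lower (edgeR), beside 3.71% of all genes higher and 4.43% lower. Unadjusted p values were under 0.05 for 6 members (7.79%), all higher at day 15, beside 27.6% of all genes, and DESeq2 placed 2 members past the adjusted threshold (2.60%), beside 13.7%. The groups did not overlap for 34 members (44.2%), 29 higher and 5 lower at day 15, beside 62.5% of all genes. WT day 0 replicate 1 again decided the median, which was -0.03 with 37 positive values without it, and 0.35 with 67 positive values without replicate 2.

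*Mrpl38*, a mitochondria-specific protein of the central protuberance, a ridge of the large subunit, was at 59.0 and 52.8 CPM in WT mice at day 0 and 127 and 146 CPM at day 15. Both treated mice lay above both untreated mice, and *Mrpl38* rose by a log2 fold change of 1.28 (SE 0.28, adjusted p = 0.0270). It lost the adjusted threshold when any of the 4 WT mice was left out, at log2 fold changes between 1.18 and 1.38. In each of these fits the share of all genes past the threshold also fell. With offsets for GC content and length the log2 fold change of *Mrpl38* was 0.88, under the 2-fold limit. *Mrpl2*, next to the peptidyl transferase center where peptide bonds are made, was at 43.4 and 54.4 CPM at day 0 and 99.3 and 90.2 CPM at day 15 (log2 fold change 0.96, SE 0.27, adjusted p = 0.0556), and it passed with DESeq2. *Mrpl22*, of the exit tunnel, *Mrpl4* and *Mrps25* had log2 fold changes of 0.86, 0.81 and 0.66. The lowest values were those of *Mrps31* (-0.80), *Mrps36* (-0.78), *Mrps33* (-0.63), *Mrpl3* (-0.43) and *Mrpl50* (-0.41), none of them past the threshold.

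In *Hsf1* null mice the same comparison gave a median log2 fold change of 0.00 over the 77 genes, beside 0.05 over all genes, and 39 of 77 values were positive. Yet 8 members were called (10.4%), beside 11.8% of all genes tested. At adjusted p under 0.05 with no limit on the fold, 4 members were higher (5.19%), beside 6.07% of all genes, and 5 were lower (6.49%), beside 7.23%. The groups did not overlap for 47 members (61.0%), 24 higher and 23 lower at day 15, beside 61.3% of all genes. At an unadjusted p under 0.05, 8 members were higher and 10 lower (23.4%), beside 32.6% of all genes. Single members moved in opposite directions and the 77 genes as a whole had no common one. The SD of the log2 fold changes over the 77 genes was 0.62 in null mice and 0.37 in WT mice, beside 1.01 and 1.09 over all genes.

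Genes of the large subunit made up the 4 that rose in null mice. *Mrpl2* (chr17:46646229-46650139) was at 61.3 and 39.2 CPM in null mice at day 0 and 135 and 118 CPM at day 15, so that each treated mouse lay above each untreated one, and rose by a log2 fold change of 1.32 (SE 0.27, adjusted p = 0.0203). *Mrpl38* (chr11:116131817-116138868) was at 64.5 and 37.0 CPM at day 0 and 130.3 and 121 CPM at day 15, again without overlap, and rose by 1.29 (SE 0.28, adjusted p = 0.0230). *Mrpl28* (chr17:26123500-26126613), counterpart of a bacterial large-subunit protein, was at 126 and 103 CPM at day 0 and 259 and 216 CPM at day 15, and rose by 1.05 (SE 0.27, adjusted p = 0.0340). The treated null mice were the highest of all 8 libraries for *Mrpl28*. *Mrpl37* (chr4:107055874-107066868), a mitochondria-specific protein, was at 62.1 and 54.3 CPM at day 0 and 109 and 107 CPM at day 15, without overlap, and rose by 0.89 (SE 0.22, adjusted p = 0.0324). *Mrps25* had a log2 fold change of 0.95, above that of *Mrpl37*, but an adjusted p of 0.0689.

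Of the 5 genes that fell, 3 belong to the large subunit. *Mrpl32* (chr13:14608184-14613165) was at 60.4 and 74.0 CPM in null mice at day 0 and 18.1 and 26.1 CPM at day 15, with a log2 fold change of -1.60 (SE 0.31, adjusted p = 0.0191). Both treated null mice were lower than any other library for this gene. *Mrpl50* (chr4:49512596-49521093), a mitochondria-specific protein, was at 36.6 and 56.1 CPM at day 0 and 14.7 and 19.7 CPM at day 15 (log2 fold change -1.42, SE 0.32, adjusted p = 0.0253). *Mrpl40* (chr16:18872018-18876862), of the central protuberance as *Mrpl38* is, was at 57.6 and 80.1 CPM at day 0 and 33.8 and 34.6 CPM at day 15 (log2 fold change -1.0011, SE 0.26, adjusted p = 0.0365). Neighbours in 1 region of the particle thus moved in opposite directions. In the head of the small subunit, *Mrps33* (chr6:39801804-39810988) was at 14.8 and 15.4 CPM at day 0 and 3.72 and 4.01 CPM at day 15 (log2 fold change -1.96, SE 0.45, adjusted p = 0.0263). *Mrps10* (chr17:47368887-47381417), also of the head, was at 49.3 and 44.2 CPM at day 0 and 16.0 and 26.9 CPM at day 15 (log2 fold change -1.13, SE 0.32, adjusted p = 0.0462). None of these 5 genes overlapped between the days in null mice.

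Whether these 9 genes passed varied with the libraries and the fit used, as it did for all genes. Of the 9, 0 passed without null day 0 replicate 2 (beside 0% of all genes), 0 without null day 15 replicate 1 (beside 3.38%), and 1, *Mrpl32*, without null day 15 replicate 2 (beside 2.51%). Without null day 0 replicate 1, 6 passed, beside 13.4%. With offsets that take GC content and length together, 3 members passed (3.90%), *Mrpl15*, *Mrpl40* and *Mrpl53*, beside 4.79% of all genes, and only *Mrpl40* was among the 9. Fitted with only the 2 groups compared, 6 members passed (7.79%), beside 9.76% of all genes, and 5 of them were among the 9. *Mrps10* lost the threshold when any single mouse was left out. Over the 20 alternatives all 9 kept their direction. With the offsets the log2 fold changes of the genes that rose were 0.71 (*Mrpl2*), 0.68 (*Mrpl38*), 0.37 (*Mrpl28*) and 0.73 (*Mrpl37*). Those of the genes that fell were -1.01 (*Mrpl32*), -0.91 (*Mrpl50*), -1.51 (*Mrpl40*), -1.61 (*Mrps33*) and -0.87 (*Mrps10*). All but that of *Mrpl40* were thus nearer to 0 with the offsets.

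**Figure D2:**
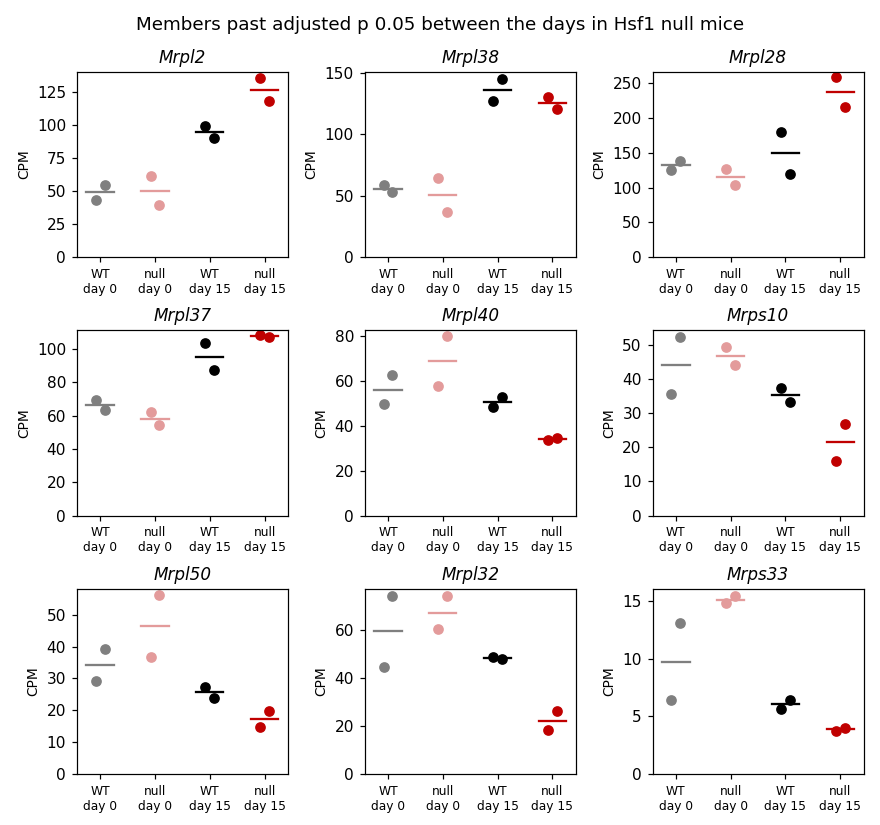
CPM (vertical axis) of the 9 genes with an adjusted p under 0.05 between the days in *Hsf1* null mice, as 1 point per mouse and a bar at the group mean, in 4 groups of 2 mice. In each panel both null mice at day 15 lie on the same side of both null mice at day 0.

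Whether the days differed more in 1 genotype than in the other is a question for the difference of the changes (WT minus null), since the comparisons above share samples with it and with each other. Its median was 0.13 over the 77 genes, beside 0.00 over all genes, with 49 of 77 values positive, and 0.00 without WT day 0 replicate 1. None of the 77 genes was called by edgeR, beside 0.00696% of all genes tested (1 gene), 6 had an unadjusted p under 0.05 (7.79%, beside 8.62% of all genes), and DESeq2 placed 0 past the adjusted p, beside 0.835%. The highest values were those of *Mrpl20* (1.33), *Mrps33* (1.33), *Mrpl32* (1.31), *Mrpl53* (1.06) and *Mrpl50* (1.01), and the lowest those of *Mrpl28* (-0.86), *Mrpl14* (-0.71), *Mrpl43* (-0.53), *Mrpl51* (-0.46) and *Mrpl27* (-0.45). For *Mrpl32* the adjusted p was 0.455, and for *Mrpl38*, at a difference of 0.00, it was 0.999. The 8 genes past the threshold in null but not in WT mice were therefore not shown to differ between the genotypes.

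Split by symbol, the median log2 fold change between the days in null mice was 0.04 for the 48 Mrpl genes (28 positive) and -0.08 for the 29 Mrps genes (11 positive). In WT mice these medians were 0.14 and 0.10, and -0.02 and -0.08 without WT day 0 replicate 1. Members other than *Mrps36* were also split into proteins with a bacterial counterpart and mitochondria-specific ones. This split went by the number in the symbol, except for *Mrpl47*, *Mrpl55* and *Mrps24*, and was not checked protein by protein. The class with a bacterial counterpart (47 genes) had medians of 0.14 in WT and 0.01 in null mice, and the mitochondria-specific class (29 genes) 0.04 and -0.05. Without that library the WT medians were 0.02 and -0.22. In null mice 4 of the 47 and 5 of the 29 passed the adjusted threshold, where 13.3% of all genes did.

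Grouped by place in the particle, the members gave small medians between the days. The stalk that recruits translation factors (*Mrpl10*, *Mrpl11*, *Mrpl12*) had median log2 fold changes of 0.14 in WT and -0.04 in null mice. Around the exit tunnel and the anchor to the inner membrane (*Mrpl22*, *Mrpl23*, *Mrpl24*, *Mrpl45*, *Mrpl47*) they were 0.13 and 0.17, with 0 of 5 past the adjusted threshold in either genotype and 1 in each at an unadjusted p under 0.05. In the peptidyl transferase region (*Mrpl2*, *Mrpl3*, *Mrpl4*, *Mrpl16*, *Mrpl27*) they were 0.54 and 0.24, and *Mrpl2* passed in null mice. The central protuberance (*Mrpl18*, *Mrpl38*, *Mrpl40*, *Mrpl46*, *Mrpl48*) gave 0.02 and -0.13, with *Mrpl38* higher in both genotypes and *Mrpl40* lower in null mice. Without WT day 0 replicate 1 the WT medians of these 4 places were -0.12, -0.01, 0.40 and -0.27, so 3 of them turned direction. Over all genes, 8.13% (WT) and 13.3% (null) passed the adjusted threshold, and 27.6% and 32.6% had an unadjusted p under 0.05.

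In the small subunit, the decoding region (*Mrps5*, *Mrps12*) gave medians of 0.35 in WT and 0.23 in null mice. The path of the mRNA (*Mrps2*, *Mrps7*, *Mrps11*, *Mrps21*, *Mrps24*) gave 0.17 and 0.17, and without WT day 0 replicate 1 the WT medians were 0.23 and 0.21. None of these 7 genes passed the adjusted threshold in edgeR, beside 8.13% of all genes in WT and 13.3% in null mice. *Mrps11* was at an unadjusted p under 0.05 in WT mice, where 27.6% of all genes were, beside 32.6% in null mice. The paralogs of a single bacterial protein, *Mrps18a*, *Mrps18b* and *Mrps18c*, stand here by their symbols and not by their place in the particle. They had log2 fold changes of 0.21, -0.52 and -0.65 in null mice and 0.14, 0.07 and -0.04 in WT mice, none past the threshold. *Mrps36*, which is not a ribosomal protein, was at 42.0 and 19.8 CPM in WT mice and 9.31 and 15.5 CPM in null mice at day 15. Both treated null mice lay below all other libraries, at a log2 fold change between the days of -1.07 (adjusted p = 0.213).

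GC content of the longest transcript ran from 38.62% to 60.43% over the 77 genes. Across genes, which are not independent replicates, the log2 fold change between the days had a Pearson correlation with GC content of 0.344 in WT and 0.385 in null mice over the 77 genes, beside 0.226 and 0.454 over the 14282 tested genes with a known GC content. The genotype difference gave 0.445 at day 0 and 0.0821 at day 15, beside 0.276 and -0.0366. Without WT day 0 replicate 1 the correlation over the 77 genes was 0.283 between the days in WT mice and 0.388 between genotypes at day 0. In null mice the median log2 fold change between the days was -0.14 in the third of members with the lowest GC content, 0.02 in the middle and 0.18 in the third with the highest. Among the genes that passed there, those that rose have GC contents of 51.27% (*Mrpl37*), 57.52% (*Mrpl2*), 58.55% (*Mrpl28*) and 59.60% (*Mrpl38*). Those that fell have 42.18% (*Mrpl32*), 42.29% (*Mrpl50*), 43.99% (*Mrps33*), 46.92% (*Mrps10*) and 54.37% (*Mrpl40*). Between the days the relation had the same sign over all genes, at day 15 genotype had almost none in either set, and its part in the calls was not tested beyond the offsets for GC content and length.

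**Figure D3:**
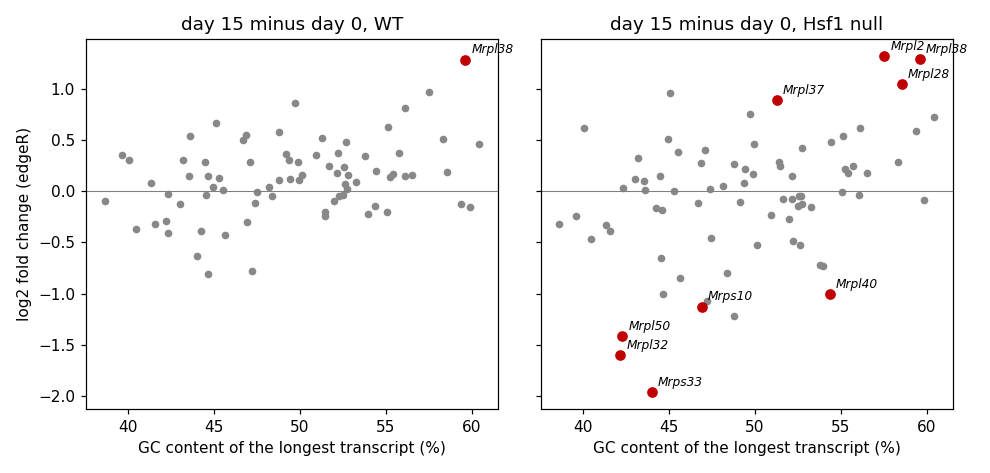
Log2 fold change between the days (edgeR, vertical axis) against GC content of the longest transcript in percent (horizontal axis) for the 77 genes, in WT mice on the left and *Hsf1* null mice on the right, with named red points for an adjusted p under 0.05. In null mice the 4 genes that rose lie at 51.27% or more and 4 of the 5 that fell at 46.92% or less, with *Mrpl40* at 54.37%.

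Proteins of the mitochondrial ribosome that carry other symbols were read beside the 77. Of 7 listed, 6 were tested, and in null mice 1 was higher and 2 lower at day 15, where 6.07% of all genes were higher and 7.23% lower. *Chchd1*, a small-subunit protein, was at 58.5 and 99.2 CPM at day 0 and 20.8 and 23.1 CPM at day 15 in null mice, and fell by 1.83 on the log2 scale (SE 0.35, adjusted p = 0.0172). *Ptcd3*, which binds RNA on the small subunit, was at 38.1 and 63.2 CPM at day 0 and 17.7 and 22.2 CPM at day 15, and fell by 1.33 (SE 0.35, adjusted p = 0.0365). *Aurkaip1*, the most abundant of them and also of the small subunit, was at 185 and 149 CPM at day 0 and 308 and 321 CPM at day 15, and rose by 0.91 (SE 0.23, adjusted p = 0.0323). None of the 6 passed in WT mice with edgeR, beside 8.13% of all genes, and 1 had an unadjusted p under 0.05, beside 27.6%. The difference of the changes had adjusted p values of 0.455 (*Chchd1*), 0.616 (*Ptcd3*) and 0.798 (*Aurkaip1*).

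Of 25 tested assembly factors of the particle (31 symbols listed), 3 rose in null mice: *Mtg1*, a GTPase (log2 fold change 1.31, adjusted p = 0.0219), *Ftsj2*, an rRNA methyltransferase (1.28, 0.0480), and *Mettl17* (1.05, 0.0461). None of the 25 passed in WT mice, with 3 at an unadjusted p under 0.05, and *Mpv17l2* was the most abundant. Among 16 translation factors, *Lrpprc*, which stabilizes mitochondrial mRNAs (1.51, 0.0219), and *Tsfm*, an elongation factor (1.10, 0.0400), rose in null mice, and *Oxa1l* was the most abundant. Of 17 mitochondrial aminoacyl-tRNA synthetases, *Sars2* and *Tars2* rose in WT mice (1.19 and 1.06, adjusted p = 0.0368 and 0.0255) and in null mice (1.53 and 1.35, adjusted p = 0.0185 and 0.0140), while *Mars2* fell in null mice (-1.66, adjusted p = 0.0395). *Lars2* was the most abundant, between 1180 and 3184 CPM across the libraries, where *Iars2* was between 60.3 and 99.9 CPM. The origin of the *Lars2* reads was not tested. In WT mice 3.71% of all genes were higher and 4.43% lower at adjusted p under 0.05. An unadjusted p under 0.05 was found there for 27.6% of all genes. In null mice 6.07% of all genes were higher and 7.23% lower at adjusted p under 0.05, and the medians were 0.32, -0.04 and 0.03 for the 3 lists. For none of these genes did the difference of the changes pass.

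For maintenance and transcription of mitochondrial DNA (12 genes tested, *Lonp1* the most abundant), *Peo1*, the replicative helicase, and *Polrmt*, the RNA polymerase, rose in null mice by log2 fold changes of 1.82 (adjusted p = 0.0137) and 1.24 (adjusted p = 0.0465). Among 9 regulators of mitochondrial biogenesis (*Esrra* the most abundant), *Ppargc1a*, a coactivator, was at 71.0 and 73.0 CPM in WT mice at day 0 and 12.4 and 3.48 CPM at day 15, with a log2 fold change of -3.16 (adjusted p = 0.0165). *Gabpa*, the DNA-binding subunit of an ETS factor, fell in null mice by 1.71 on the log2 scale (adjusted p = 0.0140), and *Yy1* by 1.07 (adjusted p = 0.0389). The difference of the changes did not pass for any of these genes, at adjusted p values of 0.508 (*Peo1*), 0.789 (*Polrmt*), 0.564 (*Ppargc1a*), 0.621 (*Gabpa*) and 0.737 (*Yy1*). At adjusted p under 0.05, 6.07% of all genes were higher and 7.23% lower in null mice, and 3.71% and 4.43% in WT mice. The 77 genes had medians of 0.14 and 0.00 between the days in WT and null mice.

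Nuclear-encoded respiratory chain genes (89 by symbol pattern, some of them assembly factors, *Cox4i1* the most abundant) had a median log2 difference between WT and null mice at day 15 of -0.44, with 0 higher and 6 lower at adjusted p under 0.05, beside 1.26% and 1.91% of all genes. The 77 genes had a median of 0.02 there. This difference between the lists was not tested. With only the day 15 groups fitted, 0.0412% of all genes passed the adjusted p between genotypes at day 15. Of the cytosolic ribosomal proteins, 5 were in the count table (*Rplp2* the most abundant) and the others were not analysed here, nor were the genes of mitochondrial DNA. Between the days in null mice, 1 of the 5 was higher and 1 lower at adjusted p under 0.05, beside 6.07% and 7.23% of all genes. Among 10 heat shock chaperone genes, *Hspa8* was the most abundant and *Dnajb1*, a cochaperone, was higher in WT than in null mice at day 15 (log2 difference 1.62, adjusted p = 0.0277), with an adjusted p of 0.551 for the difference of the changes.

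Cell type markers also moved between these groups, and their part in the values of the 77 genes was not tested. All 13 colonocyte markers were tested, *Krt19* the most abundant, with sums of 11830 and 17830 CPM in WT and 23500 and 18040 in null mice at day 0, and 14900 and 17060 in WT and 27520 and 21870 in null mice at day 15. In WT mice these markers moved in opposite directions. *Krt19* went from 3156 and 4237 CPM at day 0 to 6234 and 6743 at day 15. *Slc26a3* went from 448.7 and 813.5 CPM to 46.7 and 55.3, and *Aqp8* from 231 and 314 CPM to 18.6 and 33.4. Without WT day 0 replicate 1, 4 of the 13 had a positive log2 fold change between the days in WT mice. For 7 goblet cell markers (*Zg16*) the sums were 18410, 26700, 26080 and 21490 at day 0, and 6968 and 9139 in WT and 38780 and 18700 in null mice at day 15. The sum in both treated WT mice was below that in every other library, while single markers such as *Muc2*, *Agr2* and *Spdef* overlapped with other libraries. The 9 smooth muscle markers (*Acta2*) summed to 7282, 9974, 7187 and 7012 CPM at day 0, and to 3726 and 2157 in WT and 5422 and 6173 in null mice at day 15. Sums of the 7 fibroblast markers (*Col1a1*) were 2553, 945, 793 and 1157 at day 0, and 2381 and 2419 in WT and 459 and 1447 in null mice at day 15. Both lists separated treated WT from treated null mice.

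Macrophage markers (7, *Cd14*) summed to 479, 297, 283 and 295 CPM at day 0, and to 1120 and 1349 in WT and 308 and 561 in null mice at day 15. Neutrophil markers (5 of 7 tested, *S100a9*) were at 10.2, 3.18, 3.86 and 3.23 CPM at day 0, and at 105 and 446 in WT and 4.65 and 19.8 in null mice at day 15. *Ngp* was at 0 in all libraries but the treated WT ones, *Cxcr2* in replicate 2 of both day 0 groups, and *S100a8* in null day 0 replicate 2 and null day 15 replicate 1. T cell markers (6 of 7, *Lck*) summed to 50.8, 19.4, 23.7 and 11.5 CPM at day 0, and to 102 and 175 in WT and 44.2 and 76.6 in null mice at day 15. Treated WT mice had the highest sums of all 3 lists. B and plasma cell markers (6 of 7, *Jchain*) summed to 1955, 1707, 592 and 1425 CPM at day 0, and to 3251 and 3590 in WT and 231 and 465 in null mice at day 15. Neuron and glia markers (8, *Uchl1*) were at 69.8, 82.2, 108 and 84.4 CPM, then 147 and 111 in WT and 257 and 159.8 in null mice. Dividing cell markers (9, *Mki67*) were at 722, 589, 397 and 569.6 CPM, then 1291 and 1173 in WT and 519 and 1207 in null mice. The treated null mice differed from each other in most of these sums, while the sums over the 77 genes, 5343 and 5389 CPM, lay close together.

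Promoter sequences from RefSeq (build GRCm38.p6, 250 bases before to 50 after the gene start) were found for 68 of the 77 genes, 74 promoters in all. They had a median GC content of 58.5%, beside 52.7% for all 32851 promoters of the table. Motifs were searched on both strands. The NRF1 motif GCATGCGC stood in 8 of the 74 promoters (10.81%), beside 2.71% of all promoters, the ETS motif CCGGAAG in 25 (33.78%), beside 8.86%, and the YY1 motif AAGATGGCG in 8 (10.81%), beside 1.40%. Among promoters of genes in the count table, these shares were 4.50%, 14.65% and 2.41%. Paired heat shock units stood in 5 promoters as GAANNTTC (6.76%), beside 7.86% of all promoters, and in 2 as TTCNNGAA (2.70%), beside 8.52%. Among promoters of genes in the count table these shares were 5.91% and 6.94%. A run of 3 such units in alternating direction was in 0 of 74, beside 0.60%. A match is a description of letters and says nothing of binding.

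Parts of 3 promoters are shown, chosen after the sequences were seen, for a gene that rose in null mice and for the genes with the lowest log2 fold changes there. All are from GRCm38.p6 and run 5′ to 3′ on the gene's strand, and capitals mark a motif match. That of *Mrpl2* (chr17:46646023-46646220, plus strand) holds none of the motifs. In *Mrps33* (chr6:39810989-39811186, minus strand) the capitals are a heat shock pair, and the ETS motif lies in the part of the promoter not shown. For *Mrpl32* (chr13:14613096-14613125, minus strand) the 30 bases hold 3 of 4 NRF1 matches in its promoter, of which the first 2 overlap on opposite strands. They end 58 bases before the RefSeq start but lie inside the gene as GENCODE annotates it.
Mrpl2: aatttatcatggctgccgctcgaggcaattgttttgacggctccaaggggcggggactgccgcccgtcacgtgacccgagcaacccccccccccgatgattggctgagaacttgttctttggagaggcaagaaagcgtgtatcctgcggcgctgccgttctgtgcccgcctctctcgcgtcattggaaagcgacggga
Mrps33: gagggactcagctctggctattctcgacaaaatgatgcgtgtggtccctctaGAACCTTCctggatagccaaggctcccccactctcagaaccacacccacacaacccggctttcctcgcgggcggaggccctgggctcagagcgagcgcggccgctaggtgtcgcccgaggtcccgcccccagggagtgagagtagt
Mrpl32: tGCGCATGCGCaagaggggcctGCGCATGC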

How the data were processed

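The authors deposited raw counts per gene symbol, from reads aligned to mm10 with STAR, for 8 distal colon libraries, and a normalized score per gene, in which a DESeq2 size factor scales each library. Dividing the deposited tables gave these factors back, and the raw counts were used. The filter kept genes whose normalized counts averaged over 5, and the test was edgeR 4.0.16 (R 4.3.3): TMM scaling, 1 quasi-likelihood model of 4 groups, Benjamini-Hochberg adjustment within each of 5 comparisons. A gene was called at an adjusted p under 0.05 and more than 2-fold. Alternatives were DESeq2 1.42.0, other scalings and filters, GC content and length offsets (splines with 4 degrees of freedom), thinning, fits of the compared groups, and leaving out each mouse. Leaving WT day 0 replicate 1 out of the lists of members and the GC correlations was chosen after seeing the data. Tested on simulated data, the share of false calls varied around and above the nominal one with edgeR and was higher with DESeq2. Named are members past the adjusted threshold, filled up to 5 a direction by fold change, and the 5 highest and lowest per kilobase. The members, the gene lists and the tests were chosen with earlier results of these data known. Other list genes are named where they passed or were most abundant by mean CPM, not corrected for length.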

Additional observations from a re-analysis of the deposited data

How the results depend on the processing

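With 2 mice a group, single libraries decided much of what is given above, and a mouse left alone in its group was assumed to vary like the other groups. Leaving out each mouse in turn, the median log2 difference between genotypes at day 0 ranged from -0.42 to 0.06, the median fold change between the days in WT mice from -0.03 to 0.35, and the median difference of changes from 0.00 to 0.31. In WT mice the members called between the days ranged from 0 to 1 and those past the adjusted p from 0 to 2. In null mice members called between the days ranged from 0 to 7, and those past the adjusted p from 0 to 8. *Mrps36* ranged from -0.07 to 1.67 between genotypes at day 0 and from -1.43 to 0.31 between the days in WT mice, turning direction without WT day 0 replicate 2. With GC content and length offsets, members called and past the adjusted p were 1 and 1 between genotypes at day 15, 0 and 1 between the days in WT mice, and 3 and 3 in null mice, where 6.07%, 7.97% and 4.79% of all genes passed. With the replicate block added to these offsets they were 1 and 1, 0 and 0, and 2 and 2, beside 3.19%, 4.27% and 1.84%. DESeq2 gave 1 called and 2 past the adjusted p between genotypes at day 15 and 2 past it between the days in WT mice, as total count scaling did. Thinned to the smallest library, 5 members were called in null mice. The replicate block alone kept the same 9 and 1 members past the adjusted p between the days. Deviations of replicates with the same number correlated at 0.04 and 0.14 between genotypes at days 0 and 15 and at -0.29 and 0.15 between the days in WT and null mice. With the WT mice at day 0 exchanged in the pairing, a choice made after seeing the data, 1 member was called and 4 passed the adjusted p between genotypes at day 15, and between the days 3 passed in WT and 13 in null mice, beside 11.1%, 15.9% and 21.7% of all genes. Total count scaling moved the median of all genes by 0.148 between genotypes at day 15 and by -0.116 between the days in null mice. Per coding length, 3 of the 5 highest genes were kept. In each case the cause was not tested.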
